A study of Mus musculus with 11 samples.

Results

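A set of 168 mouse genes whose retinal RNA was higher after an LSD1 inhibitor in both diseased and healthy animals is described here. A gene entered the set when its level in every inhibitor-treated retina was above that in every saline retina of the same genotype, in both genotypes. The inhibitor group's mean also had to be at least 1.3 times the saline mean in each genotype, and the mean over all libraries at least 1 CPM, the count scaled to a fixed library total. Of 37991 genes in the table, 14980 reached that mean and 173 of those met the whole rule, a share of 1.15%. Of these, 5 genes (Hap1, Baiap3, Zcchc12, Mal2 and Doc2a) were left out by name, which leaves the 168. The members were thus chosen by the GSK and saline CPM values of both genotypes. The mirrored rule, every treated library below every saline library, found 75 genes, or 0.501%. Because the inhibitor responses chose the genes, those responses are given below as a description. Where counts of calls in them are printed, the direction was fixed by the rule and nothing is read from the counts.

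LSD1, encoded by Kdm1a, is a histone demethylase that removes methyl groups from lysine 4 of histone H3 and works in repressor complexes with CoREST proteins and the histone deacetylases HDAC1 and HDAC2. Transcription factors such as REST and GFI1 bring these complexes to their target genes, and loss of LSD1 activity is known to raise the RNA of some silenced genes. In the mouse retina LSD1 is best known for its part in the maturation of rod photoreceptors, which pack their chromatin in an unusual inverted pattern.

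The 4 groups were rd10 mice given GSK2879552 (rd10 GSK, n = 3), rd10 mice given saline (rd10 saline, n = 3), wild-type mice given GSK2879552 (WT GSK, n = 3) and wild-type mice given saline (WT saline, n = 2). The rd10 mice were of strain B6.CXB1-Pde6brd10/Jrd10, which carries a germline mutation in the rod phosphodiesterase gene Pde6b and loses its rods after birth; the wild type was C57Bl/6J. GSK2879552, a covalent LSD1 inhibitor, was injected into the peritoneum daily at 4.2 mg/kg from postnatal day 9 to day 24, the age of the retinas. The dose was thus given to the whole animal and not to the retina alone. Each library came from polyA RNA of the right retina of 1 animal.

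Libraries held 19657030 to 28053367 counts. Kdm1a itself stood at 98.8 ± 4.37 CPM in rd10 GSK, 93.5 ± 3.76 in rd10 saline, 95.2 ± 3.51 in WT GSK and 89.5 ± 0.528 in WT saline (SD over the libraries of each group). The summed level of 18 rod markers reached 44.8%, 67.0% and 81.4% of the WT saline mean in replicates 1, 2 and 3 of rd10 GSK, while rd10 saline had 16.2%, 16.7% and 19.4%. In WT GSK it was 98.7%, 97.0% and 93.8%. Lens genes summed to 7310 CPM in rd10 GSK replicate 2 and 700 CPM in WT saline replicate 2, against 4.36 to 19.5 CPM elsewhere. The female-specific Xist RNA did not exceed 0.321 CPM in rd10 GSK replicates 1 and 3, rd10 saline replicate 2 and WT GSK replicate 2, and all remaining libraries had at least 728 CPM.

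Most of the 168 genes were weakly expressed. Their mean over all libraries had a median of 3.34 CPM and ran from 1.02 to 185 CPM, while the genes of at least 1 CPM that entered the statistical fit had a median of 26.3 CPM. A mean under 5 CPM was found for 104 of the 168, and a mean over 20 CPM for 15. Both ratios of GSK mean to saline mean were at least 2 for 36 genes, and the smaller ratio was under 1.5 for 68. All 168 passed the filter on low counts. Protein-coding genes made up 144, with 4 lincRNAs, 6 antisense transcripts, 2 processed transcripts and 12 identifiers that had no name in GENCODE M21. The set was spread over the genome: all autosomes held members, and the only members within 50 kb of each other were Aloxe3 and Alox8 on chromosome 11, 34.8 kb apart.

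The 12 genes with the largest responses, ranked by the smaller of the WT and rd10 log2 fold changes, were Atp10b, Tcfl5, Gabre, Tpm2, Sypl2, Map3k6, Mapk15, E130018N17Rik, ENSMUSG00000092098, Ecel1, Syne3 and Ryr1. To show upstream sequence of strong responders, whether or not it holds a motif, the 250 bases before the start are printed here for the first 6 of them that were matched in RefSeq (GRCm38.p6), 5′ to 3′ on the strand of the gene. They lie at chr2:180642692-180642941 (minus strand) for Tcfl5, chrX:72274722-72274971 (minus) for Gabre, chr4:43523555-43523804 (minus) for Tpm2, chr3:108226600-108226849 (minus) for Sypl2, chr4:133240568-133240817 (plus) for Map3k6 and chr2:168154514-168154763 (minus) for E130018N17Rik. Capitals mark every match, on either strand, to the 7 short motifs searched: CAGCACC and GGACAG (cores of the left and right parts of the RE1 element bound by REST), AAATCA (GFI1), TAATCC (CRX and OTX2), GGGCGG (SP factors), CAGCTG (an E-box) and TGACG (part of the cyclic AMP response element).
Tcfl5: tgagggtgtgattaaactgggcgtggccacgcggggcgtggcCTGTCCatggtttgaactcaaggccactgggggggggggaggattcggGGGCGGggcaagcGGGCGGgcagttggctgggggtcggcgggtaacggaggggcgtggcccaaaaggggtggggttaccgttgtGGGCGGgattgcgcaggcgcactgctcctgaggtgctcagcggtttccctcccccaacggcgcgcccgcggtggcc
Gabre: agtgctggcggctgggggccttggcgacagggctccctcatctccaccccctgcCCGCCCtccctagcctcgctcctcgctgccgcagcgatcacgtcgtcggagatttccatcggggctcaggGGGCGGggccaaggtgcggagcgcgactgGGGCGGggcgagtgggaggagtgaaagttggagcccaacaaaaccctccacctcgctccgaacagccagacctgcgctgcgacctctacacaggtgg
Tpm2: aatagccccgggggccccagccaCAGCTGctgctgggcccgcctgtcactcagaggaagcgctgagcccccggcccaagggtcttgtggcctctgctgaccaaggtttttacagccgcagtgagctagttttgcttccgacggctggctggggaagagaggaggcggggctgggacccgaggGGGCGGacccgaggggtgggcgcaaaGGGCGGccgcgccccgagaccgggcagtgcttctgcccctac
Sypl2: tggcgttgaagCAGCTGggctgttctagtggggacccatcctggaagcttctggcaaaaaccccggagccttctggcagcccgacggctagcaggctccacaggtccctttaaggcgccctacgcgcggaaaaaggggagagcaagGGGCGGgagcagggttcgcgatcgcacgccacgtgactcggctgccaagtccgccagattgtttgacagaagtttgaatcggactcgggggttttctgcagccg
Map3k6: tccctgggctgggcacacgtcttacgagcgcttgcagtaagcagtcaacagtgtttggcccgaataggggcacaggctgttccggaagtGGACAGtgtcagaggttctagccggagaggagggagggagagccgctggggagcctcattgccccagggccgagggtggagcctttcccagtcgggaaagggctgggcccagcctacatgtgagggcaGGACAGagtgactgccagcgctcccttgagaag
E130018N17Rik: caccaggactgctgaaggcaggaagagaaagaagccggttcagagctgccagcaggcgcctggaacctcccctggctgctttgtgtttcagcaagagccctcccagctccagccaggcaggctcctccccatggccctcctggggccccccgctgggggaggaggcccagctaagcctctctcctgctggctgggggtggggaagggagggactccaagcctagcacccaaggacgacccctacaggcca
The Tcfl5 stretch held 4 matches, 3 of them GGGCGG and 1 GGACAG, and the Gabre stretch held 3 matches, all GGGCGG. Tpm2 had 3 matches and Sypl2 2, each with GGGCGG and CAGCTG. Map3k6 had 2 matches, both GGACAG, and E130018N17Rik had 0 matches to any of the 7 motifs.

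A RefSeq promoter was found for 112 of the 168 genes. GGGCGG was present in 53 of the 112 (47.3%), against 32.9% of all 27025 promoters in the table, 57.1% of the promoters of tested genes and 47.5% of those of tested genes at 1 to 5 CPM, the range in which most of the 168 lie. The CpG content, observed over expected, had a median of 0.454 in the set, 0.378 over all promoters, 0.702 over tested genes and 0.503 over tested genes at 1 to 5 CPM. GGACAG was found in 21.4% of the set's promoters and in 22% of those of tested genes at 1 to 5 CPM, and CAGCACC in 7.14% and 6.14%. TGACG was found in 13.4% of the set's promoters and in 18.8% of those at 1 to 5 CPM. With the 50 bases after the start added, GGACAG was found in 37 of the 112 (33.0%), against 26.5% at 1 to 5 CPM, 23.1% of tested genes and 22.1% of all promoters; this window was chosen after the data were seen. No match in such a window says only that these letters are not there.

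**Figure D1:**
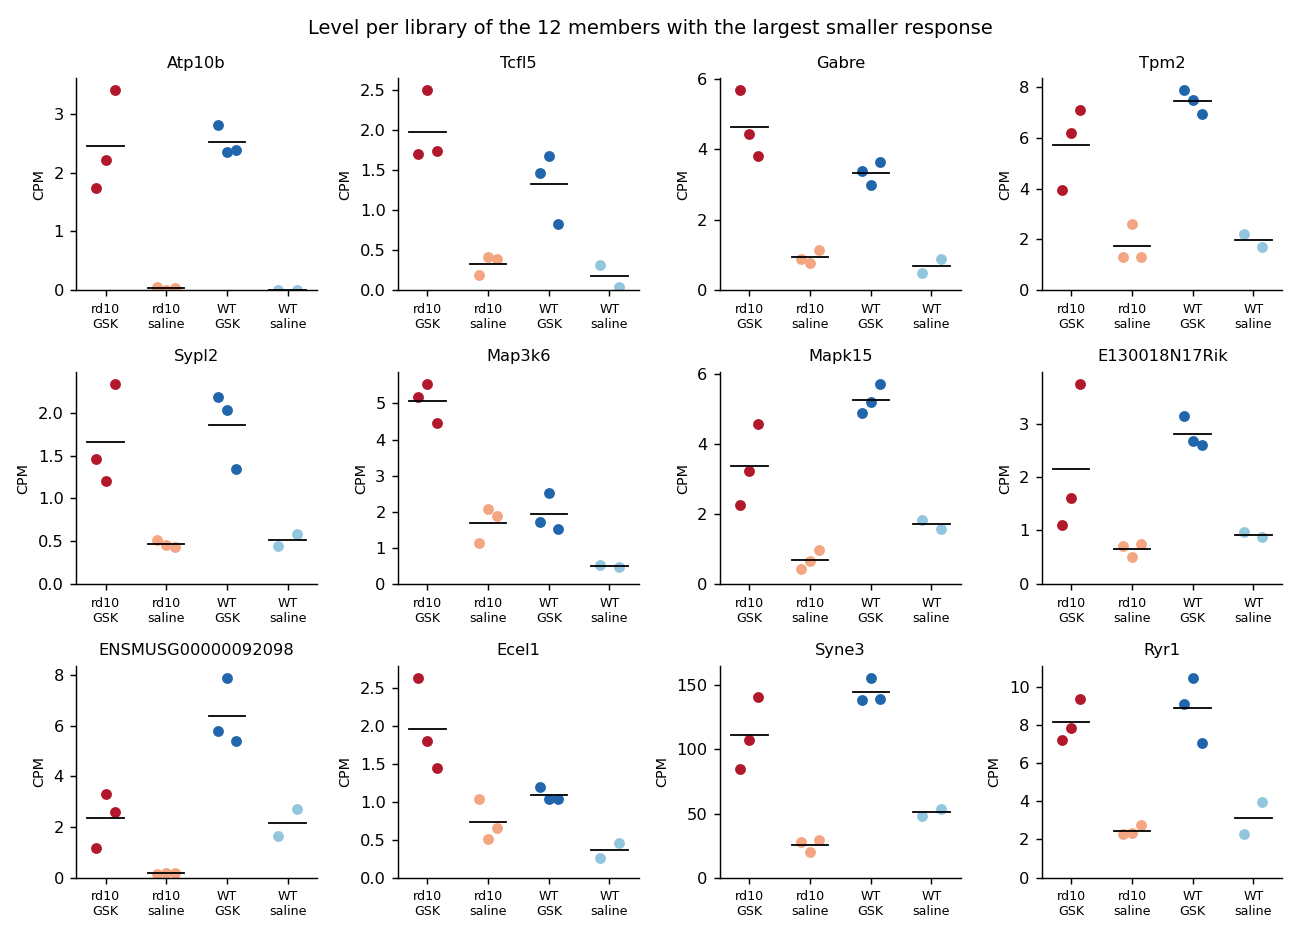
CPM in each of the 11 libraries for the 12 genes of the set with the largest responses, with a bar at each group's mean. In every panel the 3 rd10 GSK points lie above the 3 rd10 saline points and the 3 WT GSK points above the 2 WT saline points, which is how the genes were chosen.

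Atp10b, which encodes a P4-type ATPase that moves lipids between membrane leaflets, was at or near 0 without drug in both genotypes. It had 43, 48 and 80 counts in rd10 GSK and 1, 0 and 1 in rd10 saline, and 73, 66 and 55 counts in WT GSK against 0 and 0 in WT saline. On the CPM scale, WT GSK was at least 39.0-fold higher than WT saline, taking 3 counts over the group as the floor for WT saline. The rd10 ratio of 171 counts to 2 counts, allowing for depth, was 78.1 with an exact 95% interval of 21.3 to 650 that covers counting error only. No other gene of the 12 started from so low a level.

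Tcfl5, a basic helix-loop-helix transcription factor known from the mouse testis, stood at 1.70, 2.49 and 1.74 CPM in rd10 GSK, against 0.189, 0.407 and 0.391 CPM in rd10 saline. WT GSK retinas held 1.46, 1.68 and 0.822 CPM, against 0.311 and 0.0415 CPM in WT saline. The log2 responses were 2.66 ± 0.44 in rd10 and 2.89 ± 0.58 in WT (± standard error, as for every log2 value below). At these levels a saline library held between 1 and 9 counts, so the size of the response is loosely set. Tcfl5 overlaps Col9a3 on the other strand, whose response was -0.55 ± 0.20 in rd10 and 0.45 ± 0.23 in WT; neither passed the test (adjusted p = 0.0588 and 0.649).

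Gabre encodes the epsilon subunit of the GABA-A receptor, the chloride channel opened by the inhibitory transmitter GABA. Its level was 5.68, 4.43 and 3.82 CPM in rd10 GSK, against 0.897, 0.763 and 1.13 CPM in rd10 saline, and 3.38, 2.99 and 3.63 CPM in WT GSK, against 0.489 and 0.871 CPM in WT saline. These are log2 responses of 2.39 ± 0.23 in rd10 and 2.26 ± 0.28 in WT, nearly the same size. Gabrq, the theta subunit, was also in the set, at 3.69, 3.87 and 4.58 CPM in rd10 GSK, against 1.51, 2.34 and 3.17 CPM in rd10 saline. In WT GSK it was at 4.38, 3.81 and 3.85 CPM, against 1.69 and 1.33 CPM in WT saline. Gabre, Gabrq and Gabra3, the alpha-3 subunit, form a cluster on the X chromosome. Gabra3 was no member: its log2 change was -0.32 ± 0.059 in rd10 (adjusted p = 0.00190, edgeR) and -0.11 ± 0.066 in WT (adjusted p = 0.731).

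Several of the strongest responders are known from striated muscle. Tpm2, the beta-tropomyosin of the thin filament, stood at 3.93, 6.18 and 7.09 CPM in rd10 GSK, against 1.32, 2.59 and 1.3 CPM in rd10 saline. The WT GSK libraries had 7.87, 7.49 and 6.96 CPM, against 2.22 and 1.70 CPM in WT saline. Sypl2, a membrane protein of the junction between muscle surface and calcium store, had log2 responses of 1.91 ± 0.33 in rd10 and 1.83 ± 0.36 in WT. Ryr1, the calcium release channel of that store, was at 7.22, 7.84 and 9.34 CPM in rd10 GSK, against 2.27, 2.34 and 2.78 CPM in rd10 saline. The WT GSK retinas had 9.06, 10.4 and 7.05 CPM, against 2.31 and 3.98 CPM in WT saline. For these 3 genes the responses in the 2 genotypes differed by less than 0.5 on the log2 scale.

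Among the kinases, Map3k6, a stress-activated MAP kinase kinase kinase, stood at 5.19, 5.53 and 4.46 CPM in rd10 GSK, against 1.13, 2.09 and 1.87 CPM in rd10 saline. In WT GSK it stood at 1.73, 2.53 and 1.51 CPM, against 0.533 and 0.456 CPM in WT saline. Its saline level was thus already higher in rd10, and the treated WT level only reached that of untreated rd10. Mapk15, an atypical MAP kinase linked to the formation of cilia, showed the opposite order: 2.27, 3.23 and 4.58 CPM in rd10 GSK, against 0.425, 0.661 and 0.956 CPM in rd10 saline, and 4.88, 5.20 and 5.71 CPM in WT GSK, against 1.82 and 1.58 CPM in WT saline.

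Syne3 was the only 1 of the 12 that was abundant. It encodes nesprin-3, an outer nuclear membrane protein that ties the nucleus to intermediate filaments through plectin. Its level was 85.0, 107 and 141 CPM in rd10 GSK, against 28.0, 20.1 and 29.5 CPM in rd10 saline, and 138, 156 and 139 CPM in WT GSK, against 48.3 and 53.7 CPM in WT saline. The log2 responses were 2.20 ± 0.22 in rd10 and 1.49 ± 0.24 in WT. Ecel1, a metalloprotease of neurons related to endothelin-converting enzymes, was at 2.64, 1.80 and 1.44 CPM in rd10 GSK, against 1.04, 0.509 and 0.652 CPM in rd10 saline, and at 1.19, 1.03 and 1.04 CPM in WT GSK, against 0.267 and 0.456 CPM in WT saline. The lincRNA E130018N17Rik had log2 responses of 1.81 ± 0.42 in rd10 and 1.58 ± 0.45 in WT, and its level in rd10 GSK spread widely, at 1.09, 1.61 and 3.74 CPM. The unnamed identifier ENSMUSG00000092098 had 3.83 ± 0.49 in rd10 and 1.53 ± 0.37 in WT.

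At the other end of the expression scale, Srebf1, the transcription factor that drives fatty acid synthesis, was the most abundant gene of the set and 1 of the weakest responders. It stood at 178, 227 and 259 CPM in rd10 GSK, against 154, 175 and 153 CPM in rd10 saline, and at 193, 196 and 198 CPM in WT GSK, against 144 and 155 CPM in WT saline. Krt18, an epithelial keratin that forms intermediate filaments, was at 173, 173 and 215 CPM in rd10 GSK, against 66.6, 71.4 and 65.6 CPM in rd10 saline. WT GSK libraries had 93.9, 105 and 112 CPM, against 58.3 and 72.2 CPM in WT saline. Its log2 response was 1.56 ± 0.11 in rd10 and 0.65 ± 0.13 in WT. 6330403K07Rik was among the most even members, at 70.6, 67.3 and 76.3 CPM in rd10 GSK, against 45.7, 52.6 and 42.8 CPM in rd10 saline, and 74.0, 72.2 and 75.4 CPM in WT GSK, against 39.9 and 41.0 CPM in WT saline. Gng4, a G protein gamma subunit, averaged 44.1 ± 5.02 CPM in rd10 GSK and 31.5 ± 2.31 CPM in rd10 saline, and 45.8 ± 3.04 CPM in WT GSK and 32.6 ± 2.24 CPM in WT saline (SD).

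Rnf207, a RING finger protein known from the heart, was at 149, 142 and 174 CPM in rd10 GSK, against 50.1, 55.0 and 60.8 CPM in rd10 saline, and at 123, 134 and 102 CPM in WT GSK, against 53.8 and 84.0 CPM in WT saline. Rnf207 overlaps Icmt on the other strand, and Icmt changed by 1.07 ± 0.062 in rd10 (adjusted p = 1.3e-06, edgeR) and by -0.15 ± 0.068 in WT (adjusted p = 0.554). In all, 26 of the 168 genes overlap a tested gene on the other strand, with 28 such partners. Of the partners, 8 were higher and 2 lower in rd10 GSK against rd10 saline, and none passed the test in WT GSK against WT saline. Over all tested genes the shares were 17.6% higher and 15.2% lower in rd10 and 0.532% in either direction in WT, so none of 28 in WT is near the background. The strand setting of the read counting has no source here, so the reads of these pairs cannot be told apart. The partners that were higher in rd10 belonged to Rnf207, Bst1, Cideb, Wdr66, Myl4, Dnah8, Sptbn5 and Btg3.

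The set was sorted by the textbook role of its members after the members were known, which placed 83 of the 168 in 10 groups; the counts and ranges of these groups are a description. Muscle and contractile genes formed the largest group, 11 genes with a median log2 response of 1.24 in rd10 and 0.91 in WT. Beside Tpm2, Sypl2, Ryr1 and Scn4a it included Des, the muscle intermediate filament desmin (1.22 ± 0.21 in rd10 and 0.75 ± 0.25 in WT), its partner Sync, the myosins Myh7b and Myl4, the triad protein Jsrp1, and Apobec2, a muscle-enriched relative of the cytidine deaminases. Markers that define skeletal muscle fibres, 6 in all, summed to 5.43, 6.09 and 36.2 CPM in rd10 GSK. The rd10 saline libraries had 4.11, 4.53 and 3.26 CPM. The WT GSK libraries had 5.99, 5.85 and 4.84 CPM, against 5.69 and 5.35 CPM in WT saline. The rd10 GSK and rd10 saline sums do not overlap, and the WT ones do. Of the 3 markers tested, 1 was called higher with GSK in rd10, against 17.6% of all tested genes, and none passed in WT. Of the 6 markers, between 0 and 3 were at 0 in a library. Only rd10 GSK replicate 3 was high in their sum, with Ckm, the muscle creatine kinase, at 6.45 CPM there and at 0.498 CPM or less elsewhere. Scn4a and Myh7b were also highest in that library within rd10 GSK, and the part of muscle RNA in those 2 values was not tested.

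Scn4a, the voltage-gated sodium channel of skeletal muscle, spread widely within rd10 GSK. It stood at 13.7, 36.0 and 64.5 CPM in rd10 GSK, against 5.66, 4.58 and 6.48 CPM in rd10 saline, and at 39.9, 50.7 and 41.9 CPM in WT GSK, against 30.4 and 33.2 CPM in WT saline. The log2 response was 2.88 ± 0.54 in rd10 and 0.46 ± 0.54 in WT, so in WT its size is within its own error even though the libraries do not overlap. Apobec2 differed between genotypes in the same way with less spread: 25.9, 27.2 and 32.7 CPM in rd10 GSK, against 7.13, 6.46 and 8.48 CPM in rd10 saline, and 23.3, 25.3 and 24.5 CPM in WT GSK, against 13.9 and 17.4 CPM in WT saline.

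Genes of epithelia and the skin barrier numbered 9, with a median response of 1.31 in rd10 and 0.87 in WT. They included the keratins Krt18 and Krt24, the tight junction protein Cldn7, the kinase Ripk4, the cornified envelope transglutaminase Tgm3, the lipoxygenases Aloxe3 and Alox8 of which Aloxe3 builds the lipid barrier of skin, and Wfdc2. Ripk4, a kinase of epidermal development, had 1.20 ± 0.14 in rd10 and 0.72 ± 0.16 in WT. Aloxe3 had 1.49 ± 0.20 in rd10 and 0.87 ± 0.22 in WT, and its neighbour Alox8 had 1.31 ± 0.24 and 0.50 ± 0.26.

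Extracellular matrix genes numbered 10, with medians of 0.98 in rd10 and 0.79 in WT. They held 4 collagen genes: Col26a1, Col22a1, Col5a3 and Col6a2. Col5a3, a chain of type V collagen, was at 31.3, 29.7 and 46.8 CPM in rd10 GSK, against 11.8, 11.9 and 12.0 CPM in rd10 saline, and at 22.8, 26.1 and 24.1 CPM in WT GSK, against 13.3 and 17.0 CPM in WT saline. The others were the laminin chain Lamc3, the cartilage protein Cilp2, the link protein Hapln3, the hyaluronan-binding Tnfaip6, the protease Adamts16 and Lox, the oxidase that crosslinks collagen.

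Receptors and transporters numbered 10, with medians of 0.98 in rd10 and 0.91 in WT. Beside Gabre and Gabrq they held Grin2c, an NMDA receptor subunit, Chrna5, a nicotinic acetylcholine receptor subunit, Slc6a7, the brain proline transporter, Slc7a3, a cationic amino acid transporter, Slc30a3, the zinc transporter of synaptic vesicles, Lrrc8e of the volume-regulated anion channel, and the anion exchangers Slc26a7 and Slc26a2. Slc6a7 varied little between animals, at 19, 22 and 23.3 CPM in rd10 GSK, against 12.5, 12.3 and 14.0 CPM in rd10 saline, and 23.5, 24.4 and 24 CPM in WT GSK, against 14.7 and 15.5 CPM in WT saline. Grin2c had a smaller response, at 5.55, 6.50 and 6.41 CPM in rd10 GSK, against 4.29, 3.51 and 5.52 CPM in rd10 saline, and 7.07, 6.77 and 5.45 CPM in WT GSK, against 3.29 and 4.81 CPM in WT saline. Slc26a2, which carries sulfate for the sugars of the matrix, was at 66.4, 71.3 and 110 CPM in rd10 GSK, against 44.9, 34.7 and 45.1 CPM in rd10 saline, and at 92.6, 98.2 and 88.9 CPM in WT GSK, against 60.8 and 78.2 CPM in WT saline.

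Genes of G protein and cyclic nucleotide signalling numbered 10 and had the smallest responses of the 10 groups, with medians of 0.65 in rd10 and 0.50 in WT. They held Gng4, Gnb4 and Gpsm3 of the G protein cycle, the receptors Gpr25, Gpr101, Kiss1r and Calcrl, the natriuretic peptide receptor Npr1 that makes cyclic GMP, the phosphodiesterase Pde8a that breaks down cyclic AMP, and Ppp1r1b, the dopamine-regulated phosphatase inhibitor DARPP-32. Ppp1r1b was at 29.1, 28.7 and 25.3 CPM in rd10 GSK, against 16.3, 18 and 16.2 CPM in rd10 saline, and at 15.4, 17.0 and 17.2 CPM in WT GSK, against 10.8 and 13.7 CPM in WT saline. The vesicle traffic group of 5 (Rph3al, Rab37, Rab26, Syt17 and Mal) had medians of 0.73 in rd10 and 0.66 in WT.

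Motile cilium genes numbered 7, with medians of 1.03 in rd10 and 0.74 in WT. They were Mapk15, Ccno, which is needed to make many basal bodies, the axonemal dynein Dnah8, and Wdr66, Cfap70, Cfap58 and Cfap126 of the axoneme. Secreted factors also numbered 7, with medians of 0.91 in rd10 and 0.79 in WT: Notum, which removes the lipid from Wnt proteins, the growth factor carriers Igfbp3 and Igfbp6, neurturin (Nrtn), follistatin-like 3 (Fstl3), klotho (Kl) and the stress cytokine Gdf15. Lipid genes numbered 8, among them Srebf1, the prostaglandin E synthase Ptges, the phospholipase Pla2g4e and the acyltransferases Mogat1 and Awat2. Apart from Atp10b their log2 responses lay between 0.37 and 1.01 in WT and between 0.57 and 0.92 in rd10.

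Cell cycle and DNA repair genes numbered 6, with medians of 0.72 in rd10 and 0.55 in WT. E2f2, a transcription factor of the entry into S phase, had by far the larger response in WT: 3.85, 4.66 and 4.46 CPM in rd10 GSK, against 3.07, 2.95 and 2.74 CPM in rd10 saline, and 3.46, 3.64 and 4.07 CPM in WT GSK, against 0.889 and 0.705 CPM in WT saline. Its log2 difference between rd10 GSK and WT GSK was 0.12 ± 0.15 and did not pass the test (adjusted p = 0.594). Cdt1, which licenses replication origins, was at 8.07, 7.33 and 7.77 CPM in rd10 GSK, against 4.95, 6.21 and 5.13 CPM in rd10 saline, and at 3.30, 2.67 and 2.34 CPM in WT GSK, against 1.87 and 1.99 CPM in WT saline. Cdkn1a, the cyclin-dependent kinase inhibitor p21, was at 22.2, 20.9 and 24.1 CPM in rd10 GSK, against 13.2, 9.97 and 11.6 CPM in rd10 saline, and at 6.95, 6.92 and 7.66 CPM in WT GSK, against 4.93 and 4.77 CPM in WT saline. The group also held Fancd2 and Btg3, and Hfm1, a helicase of meiotic crossing-over.

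**Figure D2:**
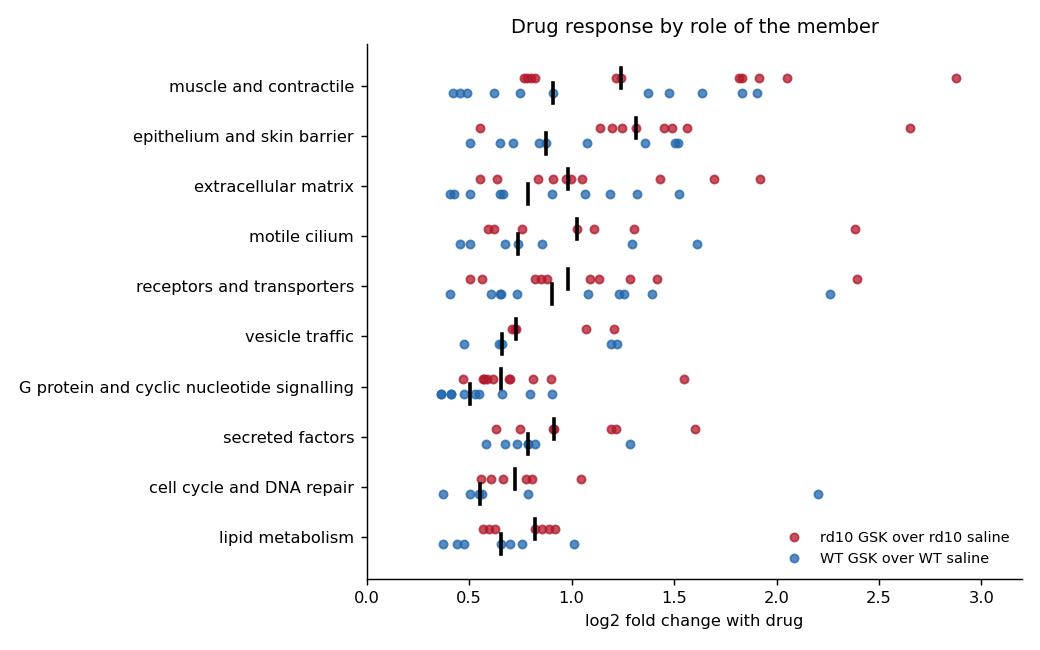
Log2 fold change with GSK of the 82 grouped genes other than Atp10b, by role, with rd10 (red, upper row of each pair) above WT (blue, lower row) and a bar at each median. Responses overlap widely between roles, with the lowest medians, 0.65 in rd10 and 0.50 in WT, in G protein and cyclic nucleotide signalling.

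The other 85 genes, in no role group, had a median response of 0.98 in rd10 and 0.81 in WT. They included the 12 unnamed identifiers, the antisense transcripts Gm11961, Gm12996 and Igf2os, the MAP kinase kinase kinase Map3k15, monoamine oxidase B (Maob), the serotonin-making enzyme Tph1, neuroglobin (Ngb), the retinoic acid carrier Crabp2, the pluripotency factor Lin28a and the testis chaperone Hspa2. Tph1 was at 3.32, 3.27 and 2.16 CPM in rd10 GSK, against 0.849, 1.27 and 0.826 CPM in rd10 saline, and at 1.54, 1.35 and 1.95 CPM in WT GSK, against 1.24 and 1.08 CPM in WT saline. Gm11837 and Susd2 were highest in rd10 GSK replicate 2, the library with the most lens RNA, at 4.80 and 44.0 CPM, against 1.15 to 1.26 and 24.5 to 25.7 CPM in the other rd10 GSK libraries; the part of lens RNA in those values was not tested.

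Some members lay at the edge of the rule. The 3 just inside were Gpr25 with ratios of 1.34 in WT and 1.3 in rd10, Pde8a with 1.3 and 1.43, and Gpsm3 with 1.3 and 1.52. Just outside were St6galnac2 with 1.298 in WT and 1.70 in rd10, Fbxo17 with 1.76 and 1.297, and Pdlim2 with 1.73 and 1.295.

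The size of the response was compared between genotypes gene by gene. The median log2 response over the 168 genes was 0.93 in rd10, with a range of 0.47 to 6.15, and 0.77 in WT, with a range of 0.36 to 8.96; over all tested genes the medians were 0.0085 and -0.0022. By edgeR's quasi-likelihood test at an adjusted p under 0.05, 160 of the 168 were called higher in rd10 GSK than rd10 saline, where 17.6% of all tested genes were called higher, and 28 in WT GSK than WT saline, where 0.444% were. The rule used these same libraries and this direction, so these counts are no evidence of a response and their distance from the shares over all genes is not a result. The WT count was 4 and 6 without WT saline replicate 1 or 2, 7, 7 and 9 without WT GSK replicate 1, 2 or 3, and 62 and 50 without rd10 GSK replicate 1 or 3, which share in the estimate of the spread. The response was larger in rd10 for 114 genes and larger in WT for 54, and the 2 responses lay within 0.5 log2 of each other for 118. As a percent of each gene's own saline mean, the median member stood at 164%, 179% and 192% in the 3 rd10 GSK libraries and at 173%, 175% and 168% in the 3 WT GSK libraries.

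**Figure D3:**
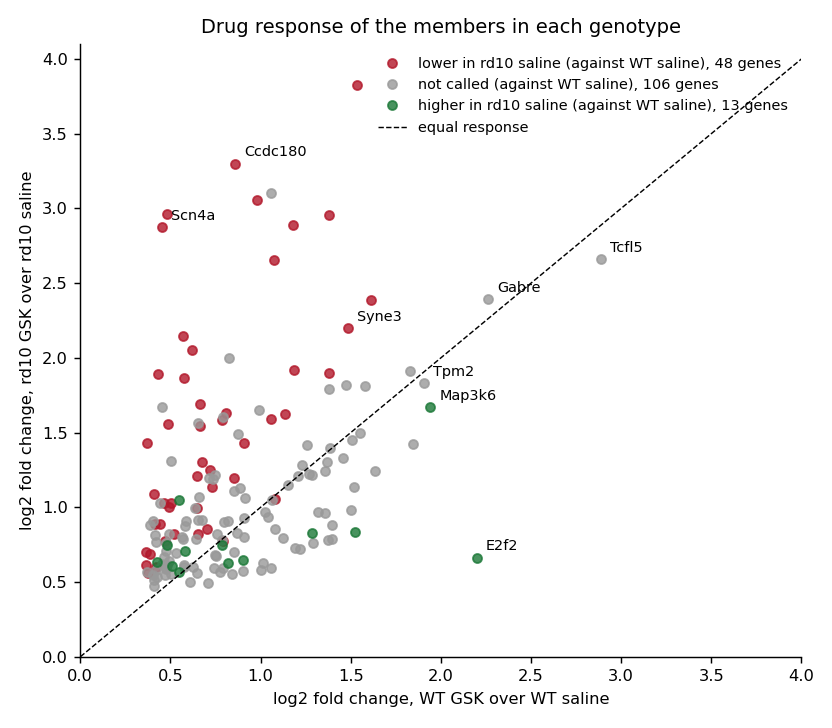
Log2 fold change of rd10 GSK over rd10 saline (vertical) against WT GSK over WT saline (horizontal) for 167 of the 168 genes; Atp10b is left out because its fitted folds depend on libraries at or near 0. Genes lower in rd10 saline than in WT saline (red, 48) lie mostly above the line of equal response, and the 13 genes higher in rd10 saline (green) lie on both sides of it.

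The genotype comparisons did not enter the rule, although they use the same libraries. The rule favoured genes that were low in the saline libraries, and a gene low in rd10 saline met it more easily. The shares of the set called between genotypes, without and with drug, are therefore in part shaped by the selection. Without drug, 48 of the 168 genes (28.6%) were lower in rd10 saline than in WT saline, against 19% of all tested genes, and 13 (7.74%) were higher, against 21.5% (edgeR, adjusted p under 0.05; 40.5% of all tested genes differed in either direction). The median log2 difference was -0.19 over the set and 0.021 over all tested genes. Of the called genes, 32 were lower by 2-fold or more and 5 higher by 2-fold or more. In whole retina, fewer cells of a type and less RNA per cell cannot be told apart. Leaving out WT saline replicate 2 left 30 lower genes, and leaving out WT saline replicate 1 left 7 higher ones.

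The largest deficits in rd10 saline were in ENSMUSG00000092098 (-3.82 ± 0.52, adjusted p = 0.000215), the antisense transcript Gm11961 (-3.54 ± 0.61, adjusted p = 0.00199), ENSMUSG00000091084 (-3.27 ± 0.32, adjusted p = 3.24e-05), Cldn7 (-3.01 ± 0.37, adjusted p = 8.77e-05) and Scn4a (-2.72 ± 0.58, adjusted p = 0.00716). Gm11961 was at 1.82, 6.83 and 8.28 CPM in rd10 GSK, against 0.472, 0.916 and 1.04 CPM in rd10 saline, and at 20.4, 19.8 and 16.4 CPM in WT GSK, against 6.89 and 9.58 CPM in WT saline. Cldn7 was at 1.01, 1.80 and 2.25 CPM in rd10 GSK, against 0.236, 0.356 and 0.261 CPM in rd10 saline, and at 4.96, 3.92 and 3.94 CPM in WT GSK, against 2.18 and 1.83 CPM in WT saline. In both genes every rd10 GSK library stayed below every WT GSK library, and rd10 GSK replicates 1 and 2 stayed below both WT saline libraries. ENSMUSG00000091084 was at 4.70, 8.21 and 10.1 CPM in rd10 GSK, against 0.755, 1.42 and 1.00 CPM in rd10 saline, and at 13.0, 12.4 and 12.0 CPM in WT GSK, against 8.53 and 9.13 CPM in WT saline.

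Among the most abundant members, Syne3 was lower in rd10 saline by 1.19 ± 0.23 on the log2 scale (adjusted p = 0.00376), and Slc26a2 fell by 0.95 ± 0.23 (adjusted p = 0.0107). Ebpl, related to the sterol isomerase Ebp, fell by 1.40 ± 0.40 (adjusted p = 0.0244). Ebpl was at 39.0, 70.7 and 118 CPM in rd10 GSK, against 29, 32.2 and 29.9 CPM in rd10 saline, and at 83.2, 105 and 82.0 CPM in WT GSK, against 68.0 and 70.2 CPM in WT saline. Rnf207 fell by 0.53 ± 0.19 (adjusted p = 0.0494), a call that ended when any 1 of 8 libraries was left out. Krt18, Srebf1, 6330403K07Rik and Gng4 did not pass, with -0.15 ± 0.12, -0.11 ± 0.14, 0.0034 ± 0.082 and -0.26 ± 0.11.

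The 13 genes higher in rd10 saline were led by Lox (1.84 ± 0.30, adjusted p = 0.000559), E2f2 (1.66 ± 0.21, adjusted p = 9.3e-05), Map3k6 (1.56 ± 0.34, adjusted p = 0.00363), Cdt1 (1.28 ± 0.17, adjusted p = 0.000177) and Cdkn1a (1.04 ± 0.14, adjusted p = 0.000133). Lox was at 3.61, 2.54 and 2.84 CPM in rd10 GSK, against 1.70, 2.03 and 1.65 CPM in rd10 saline, and at 1.27, 1.03 and 1.47 CPM in WT GSK, against 0.311 and 0.539 CPM in WT saline. The other 8 were Tnfaip6, Cited4, Arhgef28, Ppp1r18, Mcam, Kl, Kiss1r and Gdf15. By role, 1 of the 6 cell cycle and repair genes was lower and 3 were higher in rd10 saline, 4 of the 10 matrix genes were lower and 2 higher, 3 of the 10 G protein genes were lower and 1 higher, and 2 of the 7 secreted factors were higher and none lower. In the other 6 groups none was higher, and 2 of 11 muscle, 1 of 9 epithelial, 3 of 7 cilium, 3 of 10 receptor and transporter, 1 of 5 vesicle and 2 of 8 lipid genes were lower. The shares over all tested genes were 19% lower and 21.5% higher, and no role group was tested against them.

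With drug in both genotypes, 23 of the 168 genes (13.7%) were lower in rd10 GSK than in WT GSK, against 10.9% of all tested genes, and 18 (10.7%) were higher, against 15.4% (26.2% in either direction). The median difference was -0.082 over the set and 0.0055 over all tested genes. Of the 48 genes lower in rd10 saline, 20 were also lower in rd10 GSK and the other 28 did not pass there. Of the 13 higher in rd10 saline, 11 were also higher in rd10 GSK. Passing in 1 comparison and not in the other does not show that the 2 differ, and that difference was not tested because both drug responses chose the genes. The count of 23 lower genes moved with single libraries: it was 10, 11 and 12 without WT GSK replicate 1, 2 or 3, 14 without rd10 GSK replicate 1 or 2, and 42 without rd10 GSK replicate 3, the library with the highest rod sum.

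The deficits that remained with drug were led by Gm11961 (-1.83 ± 0.45, adjusted p = 0.0200), Gm12996 (-1.59 ± 0.22, adjusted p = 0.000800), the collagen gene Col26a1 (-1.54 ± 0.22, adjusted p = 0.00112), ENSMUSG00000092098 (-1.53 ± 0.32, adjusted p = 0.00721) and Cldn7 (-1.43 ± 0.26, adjusted p = 0.00337). Col26a1 was at 4.74, 8.07 and 8.45 CPM in rd10 GSK, against 1.46, 2.19 and 2.35 CPM in rd10 saline, and at 21.6, 19.1 and 17.3 CPM in WT GSK, against 8.00 and 8.79 CPM in WT saline. The genes higher in rd10 GSK were led by Cdkn1a (1.54 ± 0.11, adjusted p = 2.81e-05), Cdt1 (1.38 ± 0.15, adjusted p = 0.000175), Map3k6 (1.29 ± 0.24, adjusted p = 0.00345), Lox (1.15 ± 0.22, adjusted p = 0.00381) and Tnfaip6 (1.11 ± 0.22, adjusted p = 0.00456). Krt18 was higher in rd10 GSK by 0.76 ± 0.11 (adjusted p = 0.00134), and Scn4a did not pass (-0.30 ± 0.47, adjusted p = 0.687). Syne3 did not pass either (-0.47 ± 0.20, adjusted p = 0.120).

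**Figure D4:**
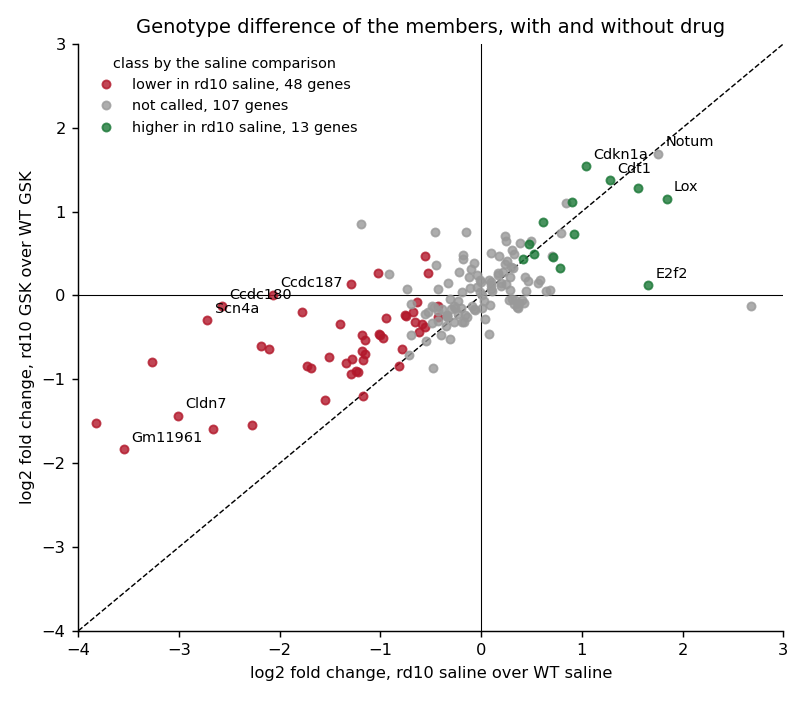
Log2 difference of rd10 GSK from WT GSK (vertical) against rd10 saline from WT saline (horizontal) for all 168 genes, coloured by the call in saline. The 48 genes lower in rd10 saline have a median of -1.19 there and of -0.52 with GSK; the dashed line marks equal differences.

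The 3 classes of the saline comparison differed in their levels by library. The 48 genes lower in rd10 saline stood, at their median, at 84.1%, 117% and 137% of the WT saline mean in replicates 1, 2 and 3 of rd10 GSK, while the rd10 saline libraries had 48.8%, 46.1% and 55.5%, and at 153%, 162% and 157% in WT GSK. The genes without a call stood at 193%, 198% and 220% in rd10 GSK, while the rd10 saline libraries had 109%, 117% and 110%, and at 179%, 185% and 171% in WT GSK. The 13 genes higher in rd10 saline stood at 374%, 289% and 316% in rd10 GSK, while the rd10 saline libraries had 216%, 201% and 220%, and at 171%, 173% and 165% in WT GSK. In WT GSK the 3 classes stood at 153% to 185%, and in rd10 GSK they spread from 84.1% to 374%. In rd10 saline they already spread from 46.1% to 220%. The classes were defined by rd10 saline against WT saline and the values are percents of WT saline, so a spread in rd10 is built in. The median log2 response was 1.43 in rd10 and 0.66 in WT for the lower class, 0.88 and 0.82 for the genes without a call, and 0.71 and 0.79 for the higher class. These classes share the rd10 saline libraries with the rd10 response, so a larger rd10 response in the lower class is in part built in. They also share the WT saline libraries with the WT response, so a smaller WT response in the lower class is in part built in too.

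**Figure D5:**
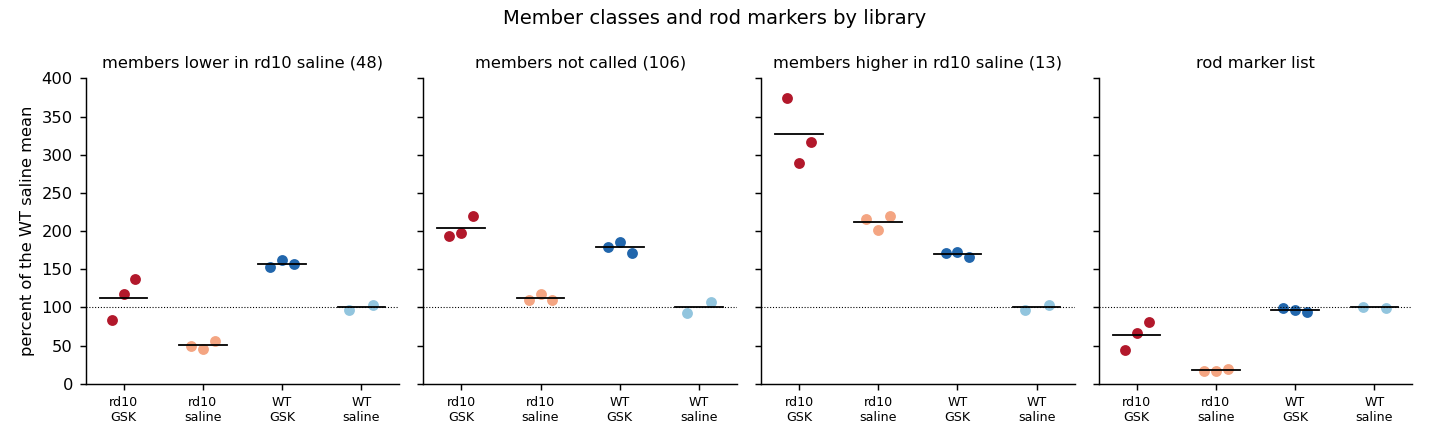
Median level of the genes of each saline class, and summed level of 18 rod markers, in each library as a percent of the WT saline mean; bars are group means and the dotted line is 100%. The lower class reaches 84.1%, 117% and 137% in rd10 GSK, and the rod sum 44.8%, 67.0% and 81.4% in the same libraries; Atp10b, at 0 in WT saline, is left out of the genes without a call.

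Within the 3 rd10 GSK libraries, 29 of the 48 lower-class genes (60.4%) ran in the same order as the rod sum, lowest in replicate 1 and highest in replicate 3. This held for 39 of the 107 genes without a call (36.4%), for 0 of the 13 higher-class genes, and for 16.9% of all genes of at least 1 CPM. Scn4a, Ebpl, ENSMUSG00000091084, Syne3 and Mapk15 are examples whose values are given above. No rod marker of the 18 was a member of the set. The part of surviving rods in the rd10 levels of these genes was not tested.

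Markers of other tissues moved with the groups as well. The 12 pigment epithelium markers, all above 0 in every library, summed to 180, 167 and 122 CPM in rd10 GSK, against 63.8, 143 and 71.2 CPM in rd10 saline, and to 217, 268 and 282 CPM in WT GSK, against 89.5 and 199 CPM in WT saline. The WT GSK and WT saline sums do not overlap, and the rd10 ones do. None of the 12 passed the test in WT, and 1 was lower in rd10. Rpe65, the isomerase that defines the pigment epithelium, was at 1.01, 9.50 and 11.0 CPM in rd10 GSK, against 2.97, 6.61 and 2.96 CPM in rd10 saline, and at 28.3, 36.3 and 33.1 CPM in WT GSK, against 7.96 and 20.7 CPM in WT saline. The markers did not move as 1: in rd10 GSK replicate 1, where Rpe65 was lowest, the pigment genes Pmel and Tyrp1 stood at 32.6 and 24.1 CPM, their highest values in any library. Microglial markers summed to 382, 252 and 165 CPM in rd10 GSK, against 622, 722 and 742 CPM in rd10 saline, and to 94.9, 99.6 and 95.1 CPM in WT GSK, against 90.0 and 93.0 CPM in WT saline. No member of the set is in either list, and the part of these cells in the members' levels was not tested. The X chromosome held 10 members (5.95%, against 3.74% of tested genes); the part of the uneven Xist levels in their values was not tested.

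The rest of the pathways around LSD1 were described through 15 gene lists. Only 4 of the 168 genes were in any of the 31 lists of pathways and cell types: Ecel1, Grin2c, Scn4a and Cdkn1a. Over all tested genes, 17.6% were called higher and 15.2% lower in rd10 GSK against rd10 saline, and 0.444% higher and 0.0877% lower in WT GSK against WT saline; the counts below stand beside these shares. Of 39 tested genes known to be repressed by REST, none was in the set. In rd10 GSK against rd10 saline, 4 of the 39 were higher and 23 lower, with a median of -0.26. In WT GSK against WT saline none was higher and 1 lower, with a median of -0.058. Of 18 tested LSD1 and CoREST complex genes, 7 were higher and 1 lower in rd10 and none passed in WT; none was in the set. Of 32 transmitter receptor genes, Grin2c included, 2 were higher and 19 lower in rd10 and none passed in WT. Of 31 voltage-gated channel genes, Scn4a included, 3 were higher and 17 lower in rd10 and none passed in WT. Of 19 neuropeptide genes, Ecel1 included, 4 were higher and 4 lower in rd10, and 3 were higher in WT. This list also holds Zcchc12, which met the rule and was left out of the set by name. Genes chosen by these same responses are thus among the 19, and nothing is read from the counts. Of 20 stress genes, Cdkn1a included, 7 were higher and 1 lower in rd10 and none passed in WT. Markers of inner retina cells also fell in rd10 GSK against rd10 saline. Of 16 bipolar markers 0 were higher and 13 lower (median -0.46), and of 14 ganglion cell markers 0 and 9 (median -0.29). Of 18 amacrine markers 1 was higher and 6 lower (median -0.18), while all 18 rod markers were higher (median 1.70). Of 8 horizontal cell markers 0 were higher and 4 lower (median -0.39), and of 12 Mueller glia markers 0 and 9 (median -0.58). In WT GSK against WT saline, 2 of the 14 ganglion cell markers were lower and none was higher. No bipolar, amacrine, rod, horizontal or Mueller glia marker passed in WT. The part of cell composition in the counts of the gene lists was not tested.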

How the data were processed

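Per the labels, polyA RNA of the right retina of 11 mice went into stranded libraries. The authors deposited raw counts per gene; the submitters' processing notes name bcl2fastq, HISAT2 2.1.0, HTSeq, edgeR and the builds NCBIM37 and mm9. The annotation and strand setting: not given in the sources used here. Names and biotypes came from GENCODE M21 by Ensembl identifier (32919 of 37991 matched; the rest held 0.627% of counts). CPM is a library's count over its column total, scaled. The filterByExpr filter (10 counts, total of 15) kept 17099 genes, which were scaled by TMM and fitted in edgeR 4.0.16 (R 4.3.3) with robust quasi-likelihood on all 11 libraries, 1 coefficient per group, with Benjamini-Hochberg adjustment over all tested genes. The fit was tested on simulated data. limma 3.58.1 and DESeq2 1.42.0 served as alternatives. Named genes are the 12 largest by the smaller response, the 8 most abundant, members in a gene list, the 5 largest genotype differences in each direction and comparison, and those at the threshold; other examples were chosen after their values were seen. The set, the gene lists and the tests were chosen with earlier results of these data known. Per the labels each library is 1 animal's retina. Same-numbered libraries were not treated as paired. The correlations of their deviations from the group means ranged from -0.19 to 0.39. The value of 0.39 was between WT saline replicate 2 and rd10 GSK replicate 2, the lens-bearing libraries, and the part of lens RNA in it was not tested. With 2 WT saline libraries, the deviations of 1 mirror those of the other, so these correlations say little on pairing. Values of 2 members are not reported here.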

Additional observations from a re-analysis of the deposited data

How the results depend on the processing

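The set grew to 356 genes, all 168 among them, when libraries were scaled on inner retina markers, and held 195 with TMM-scaled CPM. It held 100 at 1.5-fold, 613 with no fold, 64 at a minimum of 5 CPM, 288 with no minimum, 240 without both lens-bearing libraries, and 163 to 229 when 1 library was left out. With inner retina scaling the median log2 over all genes was 0.28 in the rd10 response (0.0085 with TMM) and 0.15 in rd10 GSK against WT GSK (0.0055 with TMM).

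In saline, 29 members were lower in rd10 without both lens-bearing libraries; leaving out 1 library gave 30 to 52 lower and 7 to 15 higher. With GSK, 11 were lower without the lens-bearing libraries and 14 when only these 2 groups were fitted, 30 were higher with inner retina scaling, and leaving out 1 library gave 10 to 42 lower and 12 to 21 higher. For the WT response, 43 members were called with inner retina scaling, 53 by DESeq2, 4 without the lens-bearing libraries and 4 to 62 when 1 library was left out. For the rd10 response the count stayed between 138 and 167. Members with GGACAG numbered 37 of 112 (33.0%) when the 50 bases after the start were added, against 26.5% of tested genes at 1 to 5 CPM; with 250 bases alone the shares were 21.4% and 22%. The causes were not tested. A WT saline group of 1 library is assumed to vary like the other groups. The lens setting for the drug responses and the longer promoter window were chosen after seeing the data.

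With the replicate number as a block, 51 members were lower and 12 higher in saline, 24 and 18 with GSK, 154 in the rd10 response and 12 in the WT response. No sign turned among the 33 calls of named genes under 14 alternatives each; 33 values lost the call and 429 kept it. Every WT comparison rests on 2 saline animals.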
